A study of Homo sapiens with 4 samples.

Results

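The genes followed here encode 9 secreted proteins, each known as an interleukin, as leukemia inhibitory factor (LIF) or as a colony-stimulating factor: CSF1, CSF2, CSF3, IL6, IL11, LIF, IL1A, IL1B and IL18. They were listed by name, with earlier results of these data known, and make up 9 of the 20372 genes in the deposited count table. RNA was sequenced from TPC1, a papillary thyroid cancer cell line that carries the CCDC6-RET fusion, after treatment with BGJ398, a small-molecule inhibitor of fibroblast growth factor receptors. There were 2 libraries after 6 h of drug and 2 after 24 h, and every library came from drug-treated cells. The comparison is therefore 24 h against 6 h of the same drug in 1 cell line. No untreated sample is among these libraries, so drug, time in culture and time since handling cannot be told apart. The study's methods also name cells treated with vehicle, which are not used here. The labels and the study's methods give the concentration in different units, and it is not printed here. Nothing states that the 2 libraries of a time came from separate cultures, so each p-value sets a difference against the spread between libraries alone, and that spread may be technical.

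Colony-stimulating factors drive the growth and maturation of myeloid cells: CSF1 acts on macrophages, CSF2 on granulocytes and macrophages, and CSF3 on neutrophils. IL6, IL11 and LIF belong to the IL6 family, and their receptors all use the signalling chain IL6ST and relay through JAK kinases and STAT3. IL1A, IL1B and IL18 belong to the IL1 family, in which IL1B and IL18 are made as precursors that caspase-1 (CASP1) cuts inside inflammasomes, while the IL1A precursor is already active. Tumor cells often secrete several of these proteins, and their mRNAs are known for short lives, which AU-rich stretches in the 3′ untranslated region help to set.

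Each library held 24958447 to 26325512 counts. Values are given as CPM, the counts of a gene per 1000000 counts of its library, scaled with edgeR's TMM factors. Of the thyroid follicular markers, PAX8 had 24152 to 28801 counts, and TG, FOXE1 and HHEX were each present at 268 to 421 counts. NKX2-1 and TSHR had 0 counts in all 4 libraries, and SLC5A5 had 0 or 1. The epithelial genes KRT8 and KRT18 were present at 1477 to 2182 counts, whereas CDH1 had 0 or 1. Of the 8 leukocyte markers, CD3E had 0 counts, PTPRC 2 to 6 and LYZ 0 or 1, while CD68 had 4142 to 5800. RNA of a bulk culture does not tell fewer producing cells from less RNA per cell.

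Of the 9 genes, 8 had enough reads to be tested, and all 8 had a mean that was lower at 24 h than at 6 h. Log2 fold changes, given throughout as 24 h over 6 h, had a median of -0.44 over the 8 genes and of 0.00 over all 12549 genes tested, of which 50.0% lay below 0. CSF3, CSF2 and IL6 had the largest differences, at -0.91, -0.87 and -0.86. IL11 had the smallest, at -0.03. In 6 of the 8 genes (CSF1, CSF2, CSF3, IL6, LIF and IL1B) both 24 h libraries lay below both 6 h libraries, as they did for 31.5% of all genes tested (the reverse held for 31.3% of all genes and 0 of the 8), while IL1A and IL11 overlapped.

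How many of these differences passed the test depended on the tool. With edgeR's quasi-likelihood test and Benjamini-Hochberg adjustment, 0 of the 8 genes passed an adjusted p of 0.05, against a background of 0% of all genes (0 of 12549). At an unadjusted p under 0.05, 6 of the 8 were lower at 24 h, where 10.5% of all genes were. DESeq2 called 2 of the 7 genes to which it gave an adjusted p, CSF1 and CSF3, both lower at 24 h, where 2.65% of all genes with an adjusted p were called lower and 5.59% higher.

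CSF3, which stimulates neutrophil production, had 73.3 and 65.1 CPM in the 24 h libraries (replicates 1 and 2) and 161 and 99.2 CPM in the 6 h libraries. Both 6 h libraries stood above both 24 h libraries, and 6 h replicate 1 was the highest. Its log2 fold change was -0.91 ± 0.21 (SE, n = 2 per time; 95% interval -1.38 to -0.43; edgeR adjusted p = 0.173). DESeq2 gave -0.92 ± 0.19 (SE) with an adjusted p of 0.00331. CSF3 lies at chr17:38171614-38174066 (hg19, gene ENSG00000108342).

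CSF1, the macrophage colony-stimulating factor (ENSG00000184371, chr1:110452864-110473614, hg19), had 81.5 and 71.0 CPM at 24 h and 117 and 93.8 CPM at 6 h. The libraries of the 2 times did not overlap, although the lower 6 h library was only modestly above the higher 24 h library. CSF1 had a log2 fold change of -0.47 ± 0.13 (SE; 95% interval -0.77 to -0.16; edgeR adjusted p = 0.173). With DESeq2 the adjusted p was 0.0357.

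CSF2, the granulocyte-macrophage colony-stimulating factor (ENSG00000164400, chr5:131409483-131411859, hg19), had 16.1 and 17.9 CPM at 24 h. At 6 h it had 43.7 CPM in replicate 1 and 18.3 CPM in replicate 2. The lower of the 6 h libraries was thus next to both 24 h libraries, and 1 library stood far above the other 3. For CSF2 the log2 fold change was -0.87 ± 0.34 (SE; 95% interval -1.66 to -0.073), with an adjusted p of 0.186 in edgeR and 0.312 in DESeq2.

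IL6, an inflammatory cytokine that acts through the chains IL6R and IL6ST, showed the same arrangement as CSF2 (ENSG00000136244, chr7:22765503-22771621, hg19). It had 33.9 and 32.7 CPM at 24 h, and 84.4 and 36.4 CPM at 6 h. Again 6 h replicate 1 was far above the other 3 libraries, which lay close together. IL6 had a log2 fold change of -0.86 ± 0.32 (SE; 95% interval -1.61 to -0.10), with an adjusted p of 0.179 in edgeR and 0.301 in DESeq2.

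LIF, which takes its name from its effect on leukemia cells and binds LIFR with IL6ST (ENSG00000128342, chr22:30636436-30642840, hg19), had 89.2 and 87.6 CPM at 24 h and 126 and 103 CPM at 6 h. The 24 h libraries were nearly equal, and both 6 h libraries were above them. The log2 fold change was -0.37 ± 0.12 (SE; 95% interval -0.65 to -0.10), with an adjusted p of 0.173 in edgeR and 0.0669 in DESeq2.

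IL11, which binds IL11RA with IL6ST, had 19.7 and 21.2 CPM at 24 h and 22.5 and 19.3 CPM at 6 h (ENSG00000095752, chr19:55875757-55881831, hg19). Its libraries were interleaved. The log2 fold change was -0.03 ± 0.13 (SE; 95% interval -0.32 to 0.26; edgeR adjusted p = 0.896). The interval leaves out a difference of the size measured for IL6 or LIF, but the difference between the genes was not tested.

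IL1B, a central inflammatory cytokine and the most abundant of the 9 transcripts, had 629 and 635 CPM at 24 h and 977 and 704 CPM at 6 h (ENSG00000125538, chr2:113587328-113594480, hg19). The 24 h libraries were almost equal, and the 6 h libraries were higher and further apart. IL1B had a log2 fold change of -0.41 ± 0.17 (SE; 95% interval -0.80 to -0.026), with an adjusted p of 0.191 in edgeR and 0.0635 in DESeq2. IL1B made up 61.3% to 65.0% of the counts of the 9 genes in each library, with 95% Wilson intervals from 60.8% at the lowest to 65.6% at the highest, which cover counting error only. The 9 genes together took 0.0989% and 0.0975% of all counts at 24 h, and 0.155% and 0.114% at 6 h.

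IL1A, the second IL1 receptor agonist (ENSG00000115008, chr2:113531492-113542167, hg19), had 40.6 and 46.6 CPM at 24 h and 63.2 and 39.3 CPM at 6 h. The lowest and the highest library were both 6 h libraries. The log2 fold change was -0.23 ± 0.20 (SE; 95% interval -0.71 to 0.24), with an adjusted p of 0.480 in edgeR and 0.416 in DESeq2. IL18, an inducer of interferon-gamma (ENSG00000150782, chr11:112013974-112034840, hg19), had 1 and 4 counts at 24 h and 4 and 1 at 6 h. It was too low to be tested, and no fold is given.

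**Figure D1:**
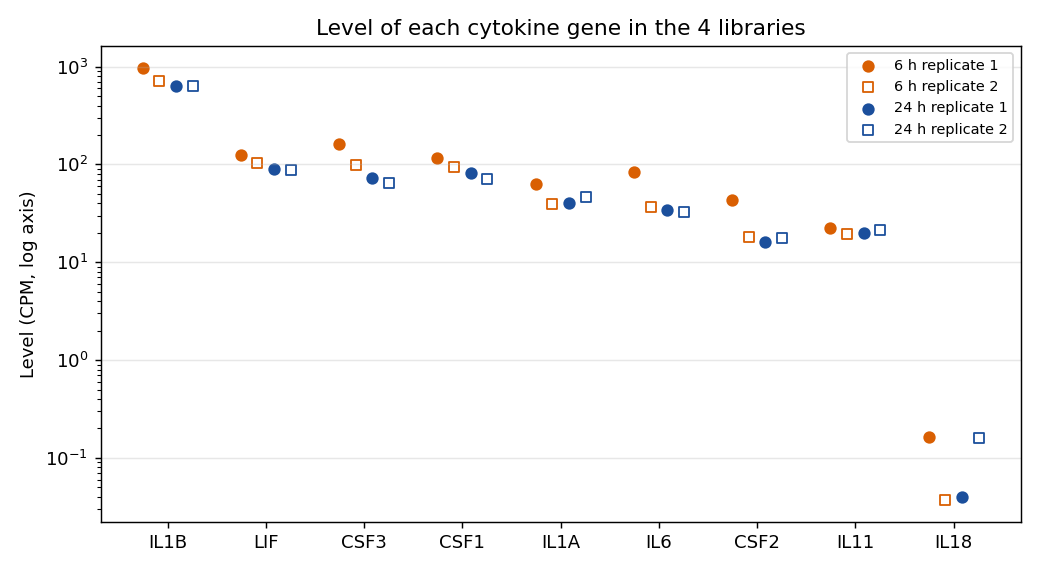
Level of each gene in CPM on a log axis, with 1 symbol per library: orange for 6 h, blue for 24 h, filled circles for replicate 1 and open squares for replicate 2. IL1B lies at 629 to 977 CPM, the other 7 tested genes between 16.1 and 161 CPM, and IL18 at 1 to 4 counts; CSF2 and IL6 each have 1 point, 6 h replicate 1, well above the other 3.

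Divided by the length of the reference transcript, levels could be ordered between genes. At 24 h the mean was 420 CPM per kb for IL1B, 46.0 for CSF3 and 29.6 for IL6, and the libraries of these genes did not overlap. LIF (22.8), IL1A (21.6), CSF2 (21.5) and CSF1 (19.1 CPM per kb) followed, and libraries of neighbouring genes in that order overlapped. IL11 was lower, at 8.61 CPM per kb, and IL18 was at 0.0898. At 6 h IL1B again came first with 558 CPM per kb, and CSF3 (86.4) and IL6 (53.6) followed with overlapping libraries. CSF2 (39.3), LIF (29.6), CSF1 (26.4) and IL1A (25.4 CPM per kb) also overlapped from neighbour to neighbour. IL6 (32.3 to 74.9) overlapped CSF2 (23.2 to 55.5 CPM per kb) as well, so their order is not settled. IL11 (8.79) was again below them. The transcripts that these cells use were not measured, so lengths are those of the annotation.

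Much of the difference between the times lay in 1 library. In all 8 tested genes, 6 h replicate 1 was the highest of the 4 libraries, as it was for 37.1% of all genes tested. It exceeded 6 h replicate 2 by a factor of 2.39 for CSF2 (exact binomial 95% interval 2.15 to 2.66, counting error only), 2.32 for IL6 (2.14 to 2.50), 1.62 for CSF3 (1.54 to 1.70) and 1.61 for IL1A (1.49 to 1.74). IL1B had a ratio of 1.39 (1.36 to 1.41). CSF1, LIF and IL11 had ratios of 1.25, 1.22 and 1.17. In all, 4 of the 8 genes differed by at least 1.5-fold between the 6 h libraries, where 1.80% of all genes did so in this direction, a threshold chosen after the values were seen. At 24 h the ratio of replicate 1 to replicate 2 lay between 0.870 (IL1A) and 1.15 (CSF1), and 0 of the 8 genes reached the same threshold, where 1.31% of all genes did.

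**Figure D2:**
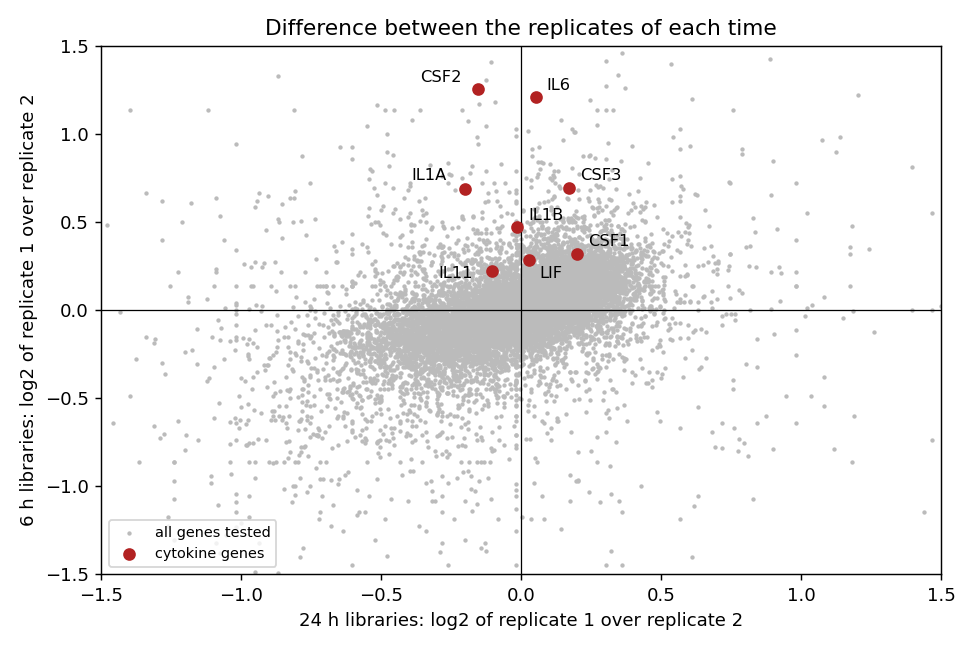
Log2 ratio of replicate 1 to replicate 2 at 24 h (x axis) and at 6 h (y axis) for all 12549 genes tested in grey, with the 8 genes named; axes end at 1.5 in each direction, which leaves out 100 genes. The 8 genes all lie above 0 on the y axis, CSF2 and IL6 highest, and near 0 on the x axis.

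Without 6 h replicate 1, the log2 fold changes were -0.11 for CSF2, -0.13 for IL6, -0.16 for IL1B, -0.23 for LIF, -0.30 for CSF1 and -0.52 for CSF3. IL1A was then at 0.15 and IL11 at 0.084, so both turned direction. The median over the 8 genes was -0.14 in edgeR and -0.15 in DESeq2. CSF1 and CSF3, which DESeq2 called over all 4 libraries, were then at -0.30 and -0.52 in DESeq2. Each fit with 1 library left out keeps a single library at that time, which is assumed to vary like the libraries of the other time. Calls from such fits thus rest on the spread at the other time alone. Where 6 h replicate 1 is the only 6 h library, it was also the highest in all 8 genes. Calls from that fit restate its high values without a replicate and are not separate evidence of a difference. Without 6 h replicate 2, by contrast, the median was -0.63 and edgeR called 5 of the 8 genes (CSF1, CSF2, CSF3, IL6 and IL1A), where 2.63% of all genes were called lower. Without 24 h replicate 1, edgeR called 4 (CSF1, CSF3, IL6 and LIF), where 10.7% of all genes were called lower, and without 24 h replicate 2 it called 0. DESeq2 called 1 of the 8 without 24 h replicate 1 (CSF1), where 6.83% of all genes with an adjusted p were called lower, and 0 of the 8 without 24 h replicate 2. Without 6 h replicate 2 it gave an adjusted p to only 4 of them, not to CSF2, IL6, IL11 or IL1A, and called CSF3 and IL1B, where 3.27% of all genes with an adjusted p were called lower. A trend in transcript length and GC content was also removed from the counts of all 4 libraries, an alternative added after the data were seen. With it removed, edgeR gave -1.18 for IL6, -1.12 for CSF2, -0.94 for CSF3 and -0.59 for IL1B. It gave -0.53 for IL1A, -0.30 for CSF1, -0.22 for LIF and 0.014 for IL11, with a median of -0.56. That fit called 0 of the 8, and 0 of all 12549 genes tested.

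**Figure D3:**
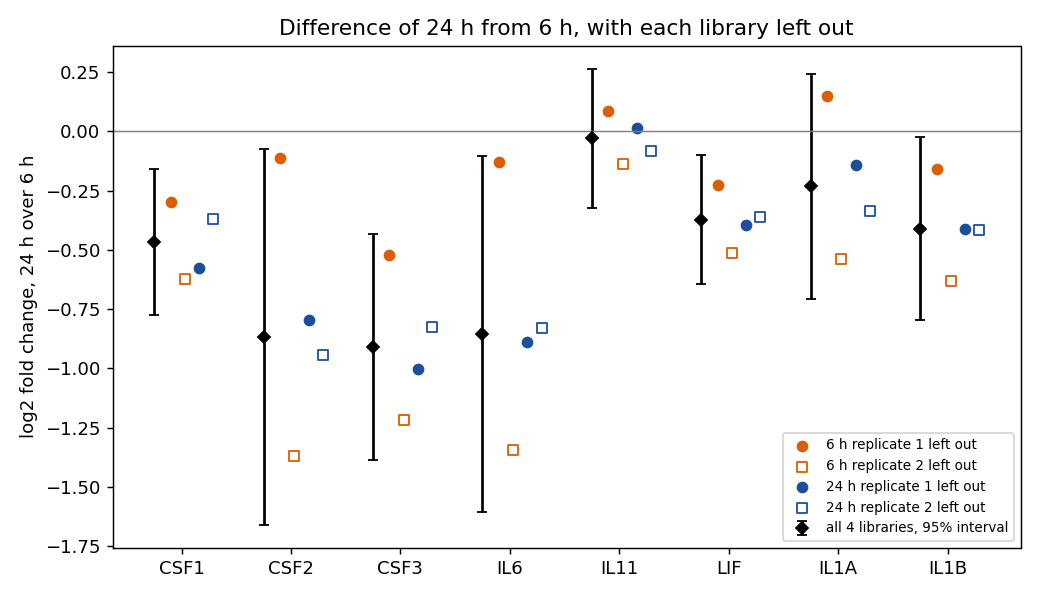
Log2 fold change (24 h over 6 h, y axis) of the 8 tested genes from edgeR. Black diamonds with bars are the values over all 4 libraries with 95% confidence intervals, and the other symbols are the values with 1 named library left out; without 6 h replicate 1 (filled orange circles) every gene moves toward or past 0, CSF2 to -0.11 and IL6 to -0.13.

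Some other features were also highest or lowest in 6 h replicate 1, which was highest for 37.1% of all genes tested. Summed over the marker lists, it was highest for epithelial markers (161 CPM, against 133 to 160 in the other 3 libraries) and for leukocyte markers (240 against 170 to 214). It was also highest for fibroblast markers (16.1 against 12.8 to 13.8) and for endothelial markers (8.36 against 3.75 to 4.74). For thyroid follicular markers 6 h replicate 2 was highest, at 1111 CPM against 1108 in 6 h replicate 1. The epithelial gene KRT8 was highest in 24 h replicate 1 (82.3 CPM, against 81.6 in 6 h replicate 1). CD68 alone made 237 of the 240 CPM of the leukocyte sum, while PTPRC and CSF1R were lowest in 6 h replicate 1, at 0.0816 and 2.24 CPM. Of the endothelial markers measured, KDR had 203 counts in 6 h replicate 1 and 99 to 114 in the others, while VWF had 2 to 5 and CDH5 0 or 1. The fibroblast genes DCN and COL1A2 had 0 counts in all libraries, as did CD3E. The share of counts from the 13 mitochondrially encoded proteins was lowest in this library, at 1.09%, against 1.40% in 6 h replicate 2 and 1.68% and 2.98% at 24 h. The part of these features in the cytokine values was not tested.

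The 3 genes whose pattern over the 4 libraries was nearest to that of IL1B, by the Euclidean distance between log2(CPM + 0.5) values centred on each gene's own mean, were PIK3R1, PLD1 and NFKBIA, among 10357 genes with at least 5 CPM. Distances were 0.032, 0.039 and 0.054 on the log2 scale. NFKBIA, the inhibitor of NF-kB and a known target of it, had 327 and 323 CPM at 24 h and 483 and 361 at 6 h. PIK3R1, a regulatory subunit of phosphoinositide 3-kinase, had 47.9, 48.2, 73.8 and 54.7 CPM in the same order. PLD1, a phospholipase, had 32.1, 32.6, 49.2 and 36.7. With 4 libraries, such a likeness describes these libraries only.

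Related ligands of the same families were measured as well. A list of 21 other ligands and soluble antagonists of these families held 8 tested genes, of which 5 were below 0 and 3 above, with a median log2 fold change of -0.05. Neither tool called any, but edgeR called 0 of all 12549 genes, and DESeq2 gave an adjusted p to only 2 of the 21. Of all genes with an adjusted p, DESeq2 called 2.65% lower and 5.59% higher. None of the list had an unadjusted edgeR p under 0.05, where 24.4% of all genes did. IL33, a nuclear alarmin of the IL1 family, had 115 and 123 CPM at 24 h and 107 and 103 at 6 h (log2 fold change 0.18 ± 0.10; edgeR adjusted p = 0.266). THPO, the platelet growth factor thrombopoietin, was low, with means of 1.34 CPM at 24 h and 1.71 at 6 h (log2 fold change -0.35 ± 0.26). IL1RN, the natural antagonist of the IL1 receptor, had 0 counts in all 4 libraries, which allows at most 3 counts or 0.111 to 0.122 CPM per library. IL1RN and the other genes named for low counts were picked after their values were seen.

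Receptors were measured from a list of 14. Of these, 10 could be tested, 5 were below 0 and 5 above, and the median was -0.00. Neither tool called any, but edgeR called 0 of all 12549 genes, and DESeq2 gave an adjusted p to only 6 of the 14. DESeq2 called 2.65% of all genes with an adjusted p lower and 5.59% higher. OSMR, which pairs with IL6ST for the related ligand oncostatin M, had the smallest p in the list, with 307 ± 28.2 CPM at 24 h and 384 ± 44.3 at 6 h (SD, n = 2; log2 fold change -0.33 ± 0.13; adjusted p = 0.187 in edgeR and 0.0937 in DESeq2). IL11RA came next, with means of 7.57 CPM at 24 h and 6.19 at 6 h (log2 fold change 0.29 ± 0.19). The levels of the receptors differed widely. IL6ST had 552 to 574 CPM and IL1R1, the signalling IL1 receptor, 297 to 335 CPM. Per length these were 62.3 and 61.3 CPM per kb at 24 h. IL6R had 32.2 to 38.6 CPM, LIFR 23.3 to 29.5 and IL1RAP, the partner chain of IL1R1, 26.9 to 29.0.

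Receptors for the colony-stimulating factors were low or at 0. CSF1R had 55 to 75 counts (2.24 to 3.01 CPM). CSF2RB, the shared signalling chain for CSF2, and CSF3R had 0 counts in every library, within the same limit of 3 counts. CSF2RA was also listed at 0, but it lies in a region shared by the X and Y chromosomes, and 12 of the 15 genes of that region in the table had no count in any library, with at most 3 in the rest. Its value therefore cannot be read. For IL18, the binding chain IL18R1 had 14.4 to 15.3 CPM and the partner IL18RAP 0 or 1 counts.

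**Figure D4:**
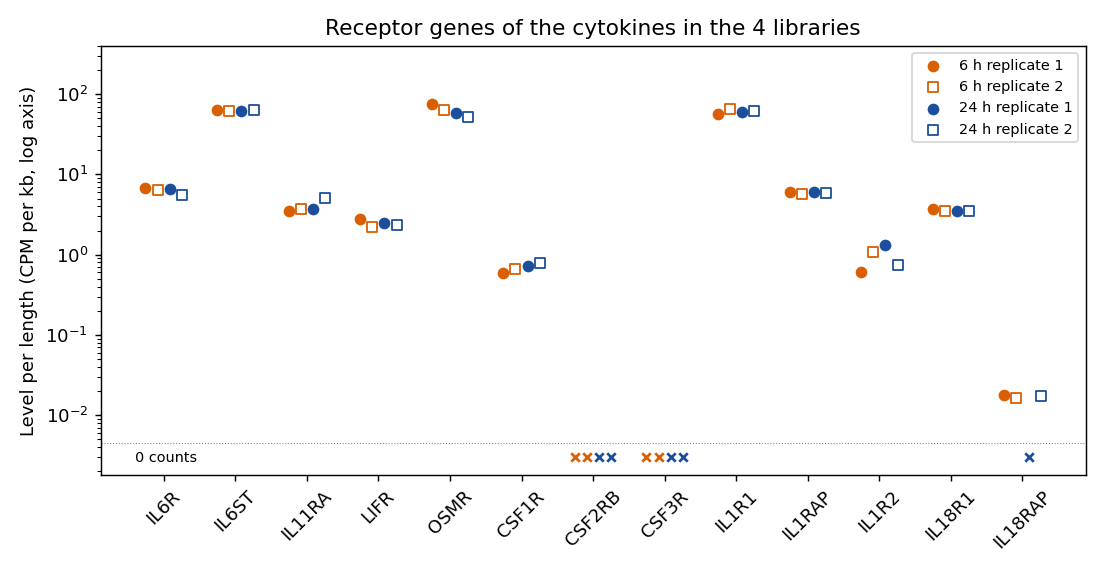
Level of the receptor chains in CPM per kb of transcript on a log axis, 1 point per library, with libraries at 0 counts drawn as crosses under the dotted line and CSF2RA left out. IL6ST, OSMR and IL1R1 lie highest (means of 62.3, 55.5 and 61.3 CPM per kb at 24 h), CSF1R lies between 0.587 and 0.789, and CSF2RB and CSF3R are at 0 counts in all 4 libraries.

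Downstream of the IL6 family receptors, 13 of 16 listed JAK-STAT genes were tested, 12 were below 0 and 1 above, and the median log2 fold change was -0.27. Of these, 7 had an unadjusted edgeR p under 0.05, all lower at 24 h (over all genes, 10.5% were lower at that p). Neither tool called any after adjustment, where edgeR called 0 of all 12549 genes. DESeq2 gave an adjusted p to 11 of the 16, and called 2.65% of all genes with one lower and 5.59% higher. In 10 of the 13, 6 h replicate 1 was the highest library, beside 37.1% of all genes. STAT3, the main transcription factor of this relay, had 120 and 98.1 CPM at 24 h and 152 and 133 at 6 h (log2 fold change -0.38 ± 0.13; adjusted p = 0.173 in edgeR and 0.0675 in DESeq2). PTPN11, the phosphatase SHP2, had a mean of 206 CPM at 24 h and 258 at 6 h (-0.32 ± 0.12). SOCS3, the feedback inhibitor induced by STAT3 and picked after its values were seen, had 107 and 95.2 CPM at 24 h and 130 and 117 at 6 h (-0.29 ± 0.11).

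Of 19 genes for maturation and relay of IL1 and IL18, 15 were tested, with 9 below 0, 6 above and a median of -0.01. NLRP3, the sensor of the inflammasome that matures IL1B, had 37.4 and 31.8 CPM at 24 h and 61.7 and 44.7 at 6 h, without overlap. Its log2 fold change was -0.62 ± 0.16 with an edgeR adjusted p of 0.173. DESeq2 called it lower at 24 h (-0.63 ± 0.18, adjusted p = 0.0211), the only call among 10 list genes with an adjusted p. Of all genes with an adjusted p, DESeq2 called 2.65% lower. IRAK2, a kinase of the IL1 receptor relay, had 123 ± 12.2 CPM at 24 h and 161 ± 22.9 at 6 h (-0.39 ± 0.13). At an unadjusted edgeR p under 0.05, 3 genes of the list were lower at 24 h and 3 were higher. Over all genes tested, 10.5% were lower at that p and 24.4% differed in either direction. The higher ones were CASP1, with 24 and 29 counts at 24 h and 10 and 18 at 6 h (log2 fold change 0.96 ± 0.38), the receptor-associated kinase IRAK4 (0.40 ± 0.15) and MAP3K7, the kinase TAK1 (0.24 ± 0.10). Inflammasome parts differed in level: the adaptor PYCARD had 2 counts in 1 library and 0 in the other 3, and AIM2 and CASP5 had 0 in all, whereas CASP4 had 2065 to 3042 counts and the sensor NLRP1 279 to 340 counts. GSDMD, the pore protein through which mature IL1B leaves cells, had 97.3 to 107 CPM.

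All 9 mRNAs were searched for the AU-rich core ATTTA and for the longer ATTTATTTA on the sense strand of the 3′ untranslated region of the reference transcript (GENCODE release 44, MANE Select), since this element is bound by proteins that control cytokine mRNA decay. The core was present in 8 of the 9 mRNAs, with 4 to 9 copies each, and IL18, the one with hardly any reads, held 0. Of 7867 tested genes with a 3′ untranslated region between the shortest and longest of these, 77.3% held the core at least once. The longer form was present in 3 of the 9 (CSF2, IL11 and IL1B) and in 5.77% of those 7867. Copies may overlap, and a match is only a match of letters. For each gene, the stretch of 30 bases with the most core copies is shown with the core in capitals.
CSF1, bases 2079 to 2108 after the stop codon: taaagtcATTTAaatatctATTTAaaagat
CSF2, bases 224 to 253 after the stop codon: aaaatATTTATTTATTTATTTATTTAagtt
CSF3, bases 20 to 49 after the stop codon: atgtATTTAtctctATTTAatATTTAtgtc
IL6, bases 168 to 197 after the stop codon: agttaATTTAtgtaagtcatATTTAtattt
IL11, bases 35 to 64 after the stop codon: ccagatcttATTTATTTATTTAtttcagta
LIF, bases 3100 to 3129 after the stop codon: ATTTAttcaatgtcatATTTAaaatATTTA
IL1A, bases 614 to 643 after the stop codon: tATTTAtatatgtATTTAtaaatatATTTA
IL1B, bases 337 to 366 after the stop codon: cgcttccctATTTATTTATTTAtttgtttg

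CSF2 had the densest run, with 8 copies in 318 bases (25.2 per kb), followed by IL6 with 14.1 and IL1B with 9.84 per kb. CSF3 had 8.20, IL11 5.54, IL1A 4.38, LIF 2.19 and CSF1 1.86 per kb, beside a median of 1.81 per kb over the 7867. CSF2 and IL6, the densest, were also the genes with the widest gap between the 6 h libraries. The next densest, IL1B, had a smaller ratio between those libraries (1.39) than IL1A (1.61), which had fewer copies per kb. IL11 had the longer form 3 times and a difference near 0. No test of this relation was made over so few genes.

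**Figure D5:**
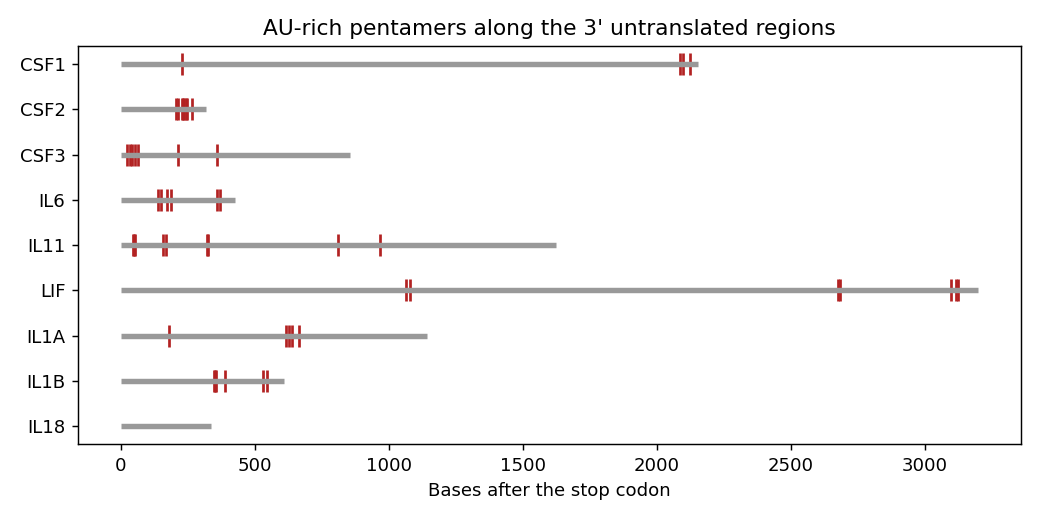
Position of each ATTTA core along the 3′ untranslated region of the 9 genes, in bases after the stop codon. CSF2 carries 8 copies within 318 bases, LIF 7 copies within 3198 bases, and IL18 none.

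Regulators of cytokine mRNA decay were tested as a list of 13, which holds AU-rich element binding proteins and also proteins that act in other ways. Of these, 11 were below 0 and 2 above, with a median log2 fold change of -0.20. At an unadjusted edgeR p under 0.05, 4 were lower at 24 h and 1, TIA1, was higher (0.41 ± 0.15). Over all genes tested, 10.5% were lower at that p and 24.4% differed in either direction. In 10 of the 13, 6 h replicate 1 was the highest library, beside 37.1% of all genes. ZC3H12A, an RNase also called Regnase-1 that cleaves IL6 mRNA at stem-loops, had 62.3 and 58.7 CPM at 24 h and 117 and 82.2 at 6 h. DESeq2 called it lower at 24 h (-0.72 ± 0.17, adjusted p = 0.00762), the only call among 12 list genes with an adjusted p. Of all genes with an adjusted p, DESeq2 called 2.65% lower. For ZC3H12A edgeR gave -0.72 ± 0.16 and an adjusted p of 0.173. This gene was also 1.42-fold higher in 6 h replicate 1 than in replicate 2. HNRNPD, the AU-rich element binding protein AUF1, had means of 180 CPM at 24 h and 232 at 6 h (-0.36 ± 0.12). Without 6 h replicate 1, DESeq2 called 0 genes of the whole table, so neither the ZC3H12A nor the NLRP3 call was left. At an unadjusted p under 0.05 it then had 310 genes, and edgeR called 1 gene.

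RefSeq promoter sequences (GRCh38.p14, 250 bases before to 50 bases after the start of transcription) were at hand for CSF2, IL6, IL11, IL1A and IL1B. They were searched on both strands for TGANTCA, the AP-1 site, and for the NF-kB consensus site, since both factors are classical activators of cytokine genes. The 2 motifs do not overlap in these promoters. IL6 held an NF-kB match 73 to 64 bases before the start. IL11 held an AP-1 match 96 to 90 bases before the start, and IL1A held 2 AP-1 matches, while CSF2 and IL1B held neither motif in this window. Of 35116 RefSeq promoters of this length, 11.3% held the NF-kB consensus and 7.71% TGANTCA. The promoters of IL6 and CSF2, which had the same pattern over the libraries, and of IL11, whose difference was near 0, are shown with matches in capitals. They lie at chr7:22726950-22727249 (IL6, plus strand), chr5:132073539-132073838 (CSF2, plus strand) and chr19:55370414-55370713 (IL11, minus strand).
IL6: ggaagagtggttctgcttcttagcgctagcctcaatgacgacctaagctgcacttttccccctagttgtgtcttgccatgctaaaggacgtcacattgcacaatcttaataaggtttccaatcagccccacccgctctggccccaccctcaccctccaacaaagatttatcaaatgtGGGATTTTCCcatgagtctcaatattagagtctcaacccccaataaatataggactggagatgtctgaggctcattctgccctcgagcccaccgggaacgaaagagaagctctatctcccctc
CSF2: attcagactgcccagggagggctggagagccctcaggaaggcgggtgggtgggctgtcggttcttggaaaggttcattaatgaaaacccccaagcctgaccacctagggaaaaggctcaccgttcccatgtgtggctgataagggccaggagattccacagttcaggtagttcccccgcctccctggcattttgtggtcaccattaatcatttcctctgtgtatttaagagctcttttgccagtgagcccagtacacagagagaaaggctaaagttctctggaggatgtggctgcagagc
IL11: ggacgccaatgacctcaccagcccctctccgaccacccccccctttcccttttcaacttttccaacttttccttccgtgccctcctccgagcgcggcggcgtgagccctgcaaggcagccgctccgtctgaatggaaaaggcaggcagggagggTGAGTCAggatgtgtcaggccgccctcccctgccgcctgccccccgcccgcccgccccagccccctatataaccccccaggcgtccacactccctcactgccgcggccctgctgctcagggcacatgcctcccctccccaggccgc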

How the data were processed

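RNA of TPC1 cells was sequenced in 4 libraries, and the authors deposited 1 table of raw read counts per gene. Per the labels' processing notes, reads were aligned to hg19 with STAR (version 2.3), and DESeq2 is named; the study's methods name another STAR version and read layout. For the counting program, its annotation and its use of strand the answer is: not given in the sources used here. Thus reads of genes that overlap on opposite strands cannot be separated. No per-sample column was left out.

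Genes were filtered with edgeR's filterByExpr (edgeR 4.0.16, R 4.3.3), scaled by TMM and compared, 24 h against 6 h, with the quasi-likelihood test, and p-values were adjusted by Benjamini-Hochberg over all 12549 genes. DESeq2 1.42.0, its size factors, no filter, a mean of at least 10 CPM, a replicate block, leaving out each library, and (added after the data were seen) a trend with transcript length and GC content were alternatives. Scripts were tested on simulated data. Counts were whole, and depth was 24958447 to 26325512 per library. Replicate libraries differed by more than sampling noise, with chi-square per degree of freedom of 15.8 at 6 h and 31.3 at 24 h, and were kept separate.

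Transcript lengths and 3′ untranslated regions came from MANE Select transcripts of GENCODE release 44. CSF1, CSF3, LIF and IL18 were not in the promoter table used. The members and gene lists were chosen with earlier results of these data known. By rule, the text names in each list the 2 genes with the smallest edgeR p and every called gene, and the 3 genes nearest in pattern to the most abundant member. Other list genes, such as the receptor chains, SOCS3, GSDMD, CASP1 and TIA1, were picked after their values were seen. Some marker genes of the lists are not reported here.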

Additional observations from a re-analysis of the deposited data

How the results depend on the processing

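With 2 libraries per time, the number of genes past the threshold, 0 in edgeR, was 610 in DESeq2. It ranged from 1 to 3126 when 1 library at a time was left out in edgeR, and from 0 to 1471 in DESeq2 (133 without 6 h replicate 2). With the replicate number as a block it was 4565, and 6 of the 8 genes were called (CSF1, CSF2, CSF3, IL6, LIF and IL1B; 17.5% of all genes were called lower). Same-numbered libraries deviated together (r = 0.49 across 12549 genes, which are not independent), but with only 2 pairs the numbers were not taken to pair the libraries. With a length and GC trend removed as well, the block called 2927 of 12549 genes, 1609 of them lower at 24 h. Those lower included 7 of the 8 genes. With the trend removed but no block, the count was 0. DESeq2's size factors, no filter and a mean of at least 10 CPM also gave 0.

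The other genes than IL11 kept their direction except IL1A, which was at 0.15 in edgeR and in DESeq2 without 6 h replicate 1 and at -0.54 in edgeR without replicate 2. IL11 ran from -0.14 to 0.084 over the libraries left out in edgeR and up to 0.081 in DESeq2 (0.0065 without 24 h replicate 1), and was 0.014 with the trend removed and 0.016 with the block too. The trend moved CSF1 to -0.30, LIF to -0.22 and IL1A to -0.53, each by over 1.5 times. The cause was not tested.

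The median of the 9 proteins' tested genes ran from -0.63 to -0.14 over the libraries left out (-0.15 at the smallest in DESeq2). It was -0.56 with the trend removed and -0.53 with the block too. Other ligands ran from -0.13 to 0.094 (DESeq2 -0.12 to 0.091), and were at -0.20 with the trend removed, with or without the block. Receptors ran from -0.034 to 0.0051 (DESeq2 -0.037, and -0.033 without 24 h replicate 1), JAK-STAT genes from -0.34 to -0.16 (DESeq2 up to -0.18), and the IL1 relay ran from -0.039 to 0.053 (DESeq2 -0.047 to 0.050, and -0.029 without 24 h replicate 1), with -0.049 at a mean of at least 10 CPM. IL18 and the receptors at 0 counts are limited by depth.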
